A study of Mus musculus with 2 samples.

Results

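The family of miR-15, miR-16, miR-195 and miR-497 is a set of microRNA (miRNA) genes whose mature products share a seed, the stretch of bases near the 5′ end that pairs with messenger RNA. Its 8 genes, Mir15a, Mir16-1, Mir15b, Mir16-2, Mir195a, Mir195b, Mir497 and Mir497b, were chosen by name and by annotated locus, not by any measured value, out of 2202 miRNA genes in the deposited tables. Small RNA was sequenced from cerebral cortex of wild-type mice of strain B6NCrl, obtained from the MODEL-AD source and described as female controls, although for sex and age the labels say only that they were not collected. All the samples are 1 untreated group of 2 libraries, numbered as biological replicates 1 and 2, with RNA limited by the labels to a size below 30. The libraries cite separate tissue records and a common donor record, so separate animals are not stated and the spread between them may be technical, and the p-values below measure only the difference between these 2 libraries.

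A miRNA gene gives rise to a hairpin precursor, from which Dicer releases a duplex with a 5p and a 3p arm. One arm enters an Argonaute protein and guides it to messenger RNAs with sites matching the seed. The family is known as a brake on the cell cycle. Its shared targets include cyclins of the D and E types, the checkpoint kinase Chek1 and the survival factor Bcl2. The pair of genes in Dleu2 is known from human chronic lymphocytic leukaemia, where its locus is often deleted, and the locus on mouse chromosome 11 is known from the heart, where miR-195 was linked to the end of heart muscle cell division after birth.

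The mature sequences are shown first, because the seed defines the family and because the bases after it decide which reads can be assigned to 1 gene. The following were taken from RefSeq (build GRCm38.p6) and are written 5′ to 3′ with the seed (bases 2 to 8) in capitals. They are the 5p arms, or the single listed arm, of all 8 genes.
miR-15a-5p: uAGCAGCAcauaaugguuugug
miR-15b-5p: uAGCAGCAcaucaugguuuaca
miR-16-5p: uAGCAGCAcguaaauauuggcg
miR-195a-5p: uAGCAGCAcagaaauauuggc
miR-195b: uAGCAGCAcagaaauaguagaa
miR-497a-5p: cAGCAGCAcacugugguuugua
miR-497b: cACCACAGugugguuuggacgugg
The seed AGCAGCA was held by the products of 7 of the 8 genes, and Mir497b was the exception. Over their first 21 bases, miR-15a-5p and miR-15b-5p were identical at 18 positions and miR-16-5p and miR-195a-5p at 19. By contrast miR-16-5p and miR-497a-5p were identical at 11 and miR-15a-5p and miR-16-5p at 15. The sequence groups therefore cross the genomic loci, since each of the Dleu2 and Smc4 loci holds 1 gene of the miR-15 kind and 1 of the miR-16 kind. miR-195a-5p and miR-195b were identical from base 1 through base 16.

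The arm miR-16-5p was listed for both Mir16-1 and Mir16-2, and it was found in 2 of the 2202 annotated precursors. Each other arm of the family (12 further sequences, both 5p and 3p) was found in 1 precursor. The hairpins of the 2 genes are shown to mark the extent of the shared run, in capitals, which covers 23 bases.
Mir16-1: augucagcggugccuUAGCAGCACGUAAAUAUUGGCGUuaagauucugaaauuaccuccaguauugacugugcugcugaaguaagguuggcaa
Mir16-2: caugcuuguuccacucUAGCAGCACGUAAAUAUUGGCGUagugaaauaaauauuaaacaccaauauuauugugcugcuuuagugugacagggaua
Outside that run the hairpins differ, and so do their 3p arms, shown here with bases 2 to 8 in capitals.
miR-16-1-3p: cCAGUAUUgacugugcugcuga
miR-16-2-3p: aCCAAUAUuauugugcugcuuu
Reads placed at several loci entered no gene's count in the deposited tables. A read holding the 22 bases of miR-16-5p and nothing else matches both precursors and cannot be assigned to 1 of them. The counts of Mir16-1 and Mir16-2 below are thus counts of reads that were placed at 1 gene, and they cannot be read as levels of miR-16-5p. The tables give 1 value per precursor, so which arm a read came from is not known for any gene.

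Coordinates are on mm10, counted from 1, with GENCODE M21 annotation. Mir15a (ENSMUSG00000093007.1, chr14:61632027-61632110) and Mir16-1 (ENSMUSG00000092995.1, chr14:61631880-61631972) lay on the minus strand, 54 nt apart, in introns of Dleu2, a long non-coding RNA. Mir16-1 also overlapped an exon of 1 Dleu2 transcript by 13 nt. Mir15b (ENSMUSG00000065580.2, chr3:69009772-69009835) and Mir16-2 (ENSMUSG00000065606.1, chr3:69009902-69009996) lay on the plus strand, 66 nt apart, in an intron of Smc4, which encodes a condensin subunit. Mir497 (ENSMUSG00000105220.1, chr11:70234717-70234800) and Mir195a (ENSMUSG00000065411.2, chr11:70235042-70235135) lay on the plus strand with 241 nt between them and no host gene over them. Mir497b (ENSMUSG00000070109.2, chr11:70234692-70234816) lay on the minus strand and covered all 84 nt of Mir497. Mir195b (ENSMUSG00000098437.1, chr2:56785811-56785907) was annotated on chromosome 2, so the annotation goes against placing it at the locus of Mir195a, and the 8 genes occupied 4 loci.

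**Figure D1:**
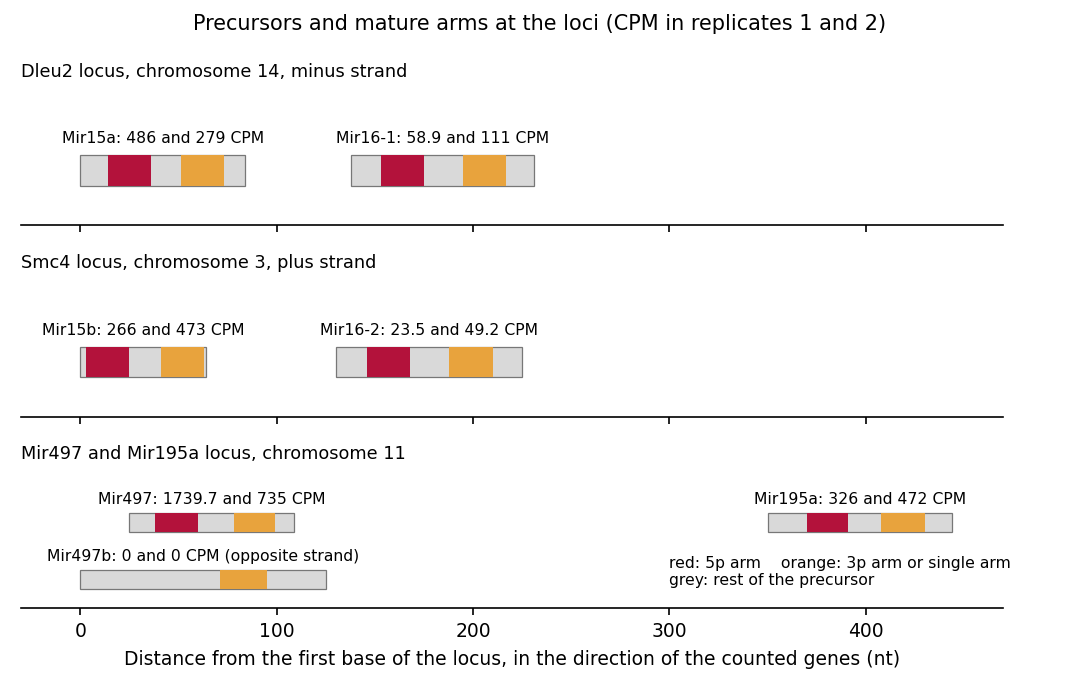
Precursors of 7 family genes drawn to scale along the 3 loci that gave counts, with distance in nt from the first base of each locus; red marks 5p arms, orange marks 3p or single arms and grey the rest of the precursor. The printed CPM values (replicate 1, then replicate 2) show that the gene with the higher value in its pair was Mir15a, Mir15b and Mir497, and that Mir497b, on the opposite strand to Mir497, had 0.

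Replicate 1 held 12506469 reads and replicate 2 held 18276311, of which 4429633 and 6985784 were sense counts in miRNA genes. Reads placed at several loci made up 43.9% of replicate 1 and 47.9% of replicate 2, and unmapped reads 17.0% and 11.1%. Levels are given as CPM, the sense count per 1000000 sense counts in all genes. A level of at least 2 CPM in each library was required for detection, which 438 of 2202 genes reached. A count of 0 allows up to 3 counts, or 0.677 CPM in replicate 1 and 0.429 CPM in replicate 2. Of 11 neuron marker genes 7 were detected (6.05% and 8.01% of counts), with Mir132 at 52078 ± 13446 CPM (SD, n = 2), while the 3 Mir124a genes and Mir9-2 were not, with 3 to 16 counts each per library. All 3 oligodendrocyte genes were detected (0.711% and 0.785%). Every marker gene of these 2 lists thus had counts. The Mir124a genes are annotated copies, as the Mir16 genes are, and whether reads placed at several loci lower their counts was not tested. In bulk tissue, fewer cells of a type and less RNA per cell cannot be told apart.

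Of the 8 family genes, 6 were detected and 2, Mir195b and Mir497b, had 0 sense counts in both libraries. The family held 12846 counts in replicate 1, or 0.290% (95% Wilson interval 0.285 to 0.295), and 14809 counts in replicate 2, or 0.212% (0.209 to 0.215). The mean was 0.251% ± 0.0552 (SD, n = 2), and the intervals, which cover counting error only, did not overlap. Without Mir497 the other 7 genes held 0.116% in replicate 1 and 0.139% in replicate 2, so that the direction of the difference between the libraries turned on that gene. Mir15a and Mir15b summed to 752 CPM (replicate 1) and 753 CPM (replicate 2), although each of the pair differed between the libraries in the opposite direction to the other.

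Mir497 and Mir195a are the pair on chromosome 11, and Mir497 had the highest level of the family in both libraries. Mir497 had 7706 counts (1739.7 CPM) in replicate 1 and 5133 counts (735 CPM) in replicate 2. It ranked 75 and 106 among the 2202 genes, and its mean was 1237 ± 711 CPM (SD, n = 2). Mir195a had 1445 counts (326 CPM) in replicate 1 and 3299 counts (472 CPM) in replicate 2, with ranks of 147 and 126 and a mean of 399 ± 103 CPM (SD, n = 2). Mir497 was higher and Mir195a lower in replicate 1 than in replicate 2, and the levels of the genes did not overlap. Mir195b, whose product shares its first 16 bases with miR-195a-5p, had 0 counts in each of the 3 deposited columns of both libraries.

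Mir15a and Mir16-1 are the pair in Dleu2. Mir15a had 2151 counts (486 CPM) in replicate 1 and 1952 counts (279 CPM) in replicate 2, a mean of 383 ± 146 CPM (SD, n = 2). Mir16-1 had 261 counts (58.9 CPM) in replicate 1 and 775 counts (111 CPM) in replicate 2, a mean of 84.9 ± 36.8 CPM (SD, n = 2). Mir15a was higher than Mir16-1 in both libraries, and these neighbours differed between the libraries in opposite directions. Mir15b and Mir16-2 are the pair in Smc4. Mir15b had 1179 counts (266 CPM) in replicate 1 and 3306 counts (473 CPM) in replicate 2, a mean of 370 ± 146 CPM (SD, n = 2). Mir16-2 had 104 counts (23.5 CPM) in replicate 1 and 344 counts (49.2 CPM) in replicate 2, a mean of 36.4 ± 18.2 CPM (SD, n = 2). Both genes in Smc4 were lower in replicate 1.

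**Figure D2:**
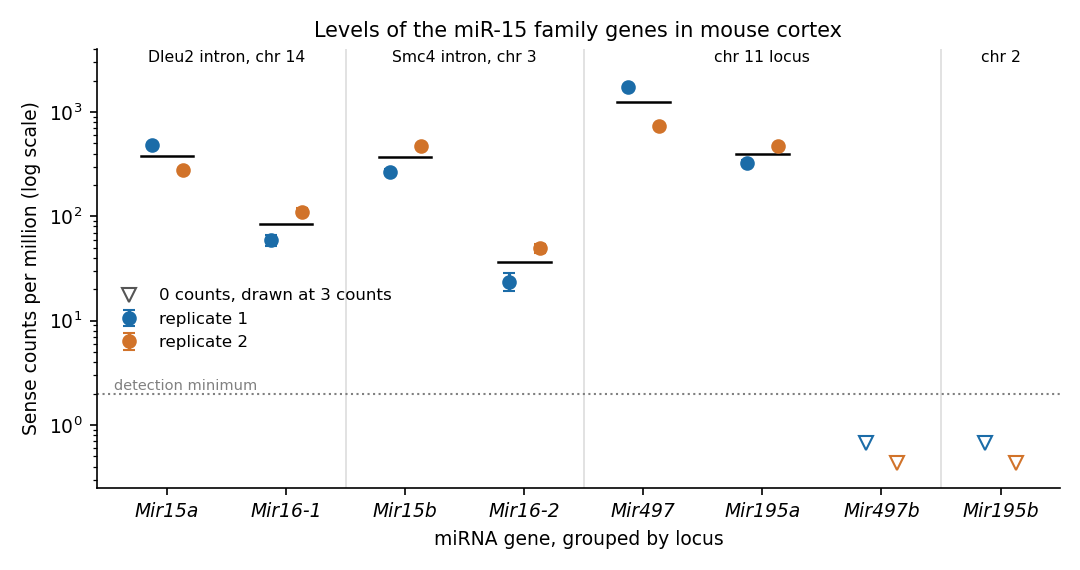
Sense CPM (log axis) of the 8 family genes by locus; blue points are replicate 1, orange points replicate 2, bars the exact 95% Poisson interval on the count, horizontal lines the mean over 2 libraries, and open triangles genes with 0 counts drawn at the limit of 3 counts. Mir497 stands highest in both libraries and Mir16-2 lowest of the detected genes, while Mir15a, Mir15b and Mir195a share the range from 266 to 486 CPM.

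For a second comparison of levels between genes, CPM was divided by precursor length and given per 100 nt. With RNA limited to a size below 30, counts need not scale with precursor length, so this is no correction. In CPM, as given above, Mir497 was also highest, and Mir15a, Mir15b and Mir195a also overlapped. Per 100 nt, Mir497 was highest at 2071 in replicate 1 and 875 in replicate 2. Mir15b had 416 and 739, Mir15a 578 and 333, and Mir195a 347 and 502, so these 3 genes overlapped and could not be ordered beyond the spread between libraries. The lower value of Mir497 was above the highest of theirs. Mir16-1 followed with 63.4 in replicate 1 and 119 in replicate 2, and Mir16-2 with 24.7 and 51.8, again with no overlap between neighbours in the order. The 2 genes that share the miR-16-5p arm were the 2 lowest of the detected members with sums of 82.4 CPM (replicate 1) and 160.2 CPM (replicate 2). The reads that fit both copies are missing from these values, and their number is not given by gene in the tables.

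Within a locus the neighbours share a library and a scale, so their split does not depend on the scaling of the libraries. It was not corrected for the GC content of the precursors, which is treated below. Reads that fit both Mir16 copies are missing from the counts of Mir16-1 and Mir16-2. The splits and ratios in Dleu2 and Smc4 are therefore of assigned counts, and they do not show how the products of a locus divide. GC content was 45.2% for Mir15a and 44.1% for Mir16-1, 40.6% for Mir15b and 36.8% for Mir16-2, and 54.3% for Mir195a and 61.9% for Mir497. In Dleu2, Mir15a made up 89.2% of the counts of its pair in replicate 1 (exact Clopper-Pearson interval 87.9 to 90.4) and 71.6% in replicate 2 (69.8 to 73.3). In Smc4, Mir15b made up 91.9% (90.3 to 93.3) in replicate 1 and 90.6% (89.6 to 91.5) in replicate 2. On chromosome 11, Mir195a made up 15.8% (15.05 to 16.55) in replicate 1 and 39.1% (38.1 to 40.2) in replicate 2. The split in Smc4 differed by 1.32 percentage points between the libraries, with overlapping intervals. The differences, replicate 1 minus replicate 2, were 17.6 points for Mir15a in Dleu2 and -23.3 points for Mir195a on chromosome 11, with intervals apart. As a ratio, Mir15a had 8.24 times the counts of Mir16-1 in replicate 1 and 2.52 times in replicate 2, whereas Mir15b had 11.3 and 9.61 times the counts of Mir16-2. The ratio of Mir497 to Mir195a was 5.33 in replicate 1 and 1.56 in replicate 2. With 2 libraries and no second group these differences have no test over animals.

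**Figure D3:**
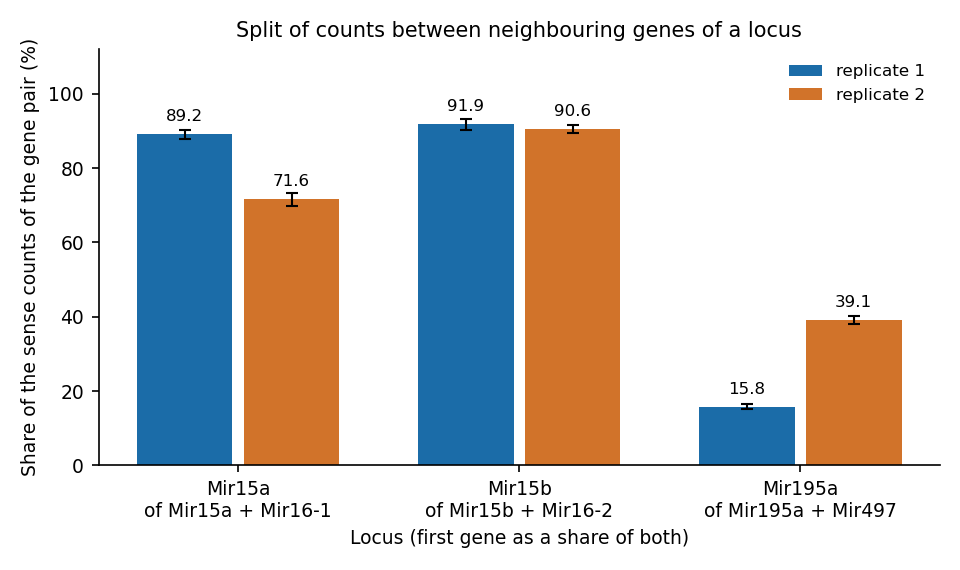
Share of the sense counts of a gene pair held by the first-named gene, in percent, for the 3 loci with counts; blue bars are replicate 1, orange bars replicate 2, and error bars exact Clopper-Pearson 95% intervals. The bars of Mir15b stand at 91.9 and 90.6, while those of Mir15a (89.2 and 71.6) and Mir195a (15.8 and 39.1) differ between the libraries by more than their intervals. Reads that fit both Mir16 copies are missing from the pairs of Mir15a and Mir15b.

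The makeup of the family differed accordingly. Mir497 held 60.0% of the family's counts in replicate 1 and 34.7% in replicate 2. Mir15a held 16.7% and 13.2%, Mir195a 11.2% and 22.3%, and Mir15b 9.18% and 22.3%. Mir16-1 held 2.03% in replicate 1 and 5.23% in replicate 2, and Mir16-2 0.810% and 2.32%. By locus, chromosome 11 gave 71.2% of the family in replicate 1 and 56.9% in replicate 2, Dleu2 18.8% and 18.4%, and Smc4 9.99% and 24.6%. Among the counts assigned to 1 gene, the chromosome 11 locus thus held more than the other loci together in both libraries. Dleu2 was the locus whose share differed least. Reads that fit both Mir16 copies are missing from the Dleu2 and Smc4 counts, and their number is not known. These shares therefore do not show which locus gave most of the family's RNA.

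Differences between the libraries were tested gene by gene with an exact binomial test (two-sided) on the counts of all 438 detected genes, after TMM scaling and with p-values adjusted by Benjamini-Hochberg. A call needed both a ratio of 2 or more and an adjusted p below 0.05, and log2 ratios are replicate 1 over replicate 2. There is no condition in this contrast, and counting error is the only error it covers. Of the 6 detected family genes, 3 were called, against a background of 18.0% of all tested genes (79 of 438). Mir497 was the 1 called higher in replicate 1, where the background was 8.68%, and Mir16-1 and Mir16-2 were the 2 called higher in replicate 2, where it was 9.36%. An adjusted p under 0.05 alone was reached by all 6, and by 63.9% of all tested genes. With the ratio set at 1.5, all 6 were called, beside 39.0% of all tested genes. The median log2 ratio of the 6 was -0.81, beside 0.03 over all tested genes. With a list of 6 genes in 3 loci these counts are a description, and nothing particular to the family is drawn from them.

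Mir497 had a log2 ratio of 1.12 (exact 95% interval 1.07 to 1.17), a fold of 2.17, with an adjusted p of at most 7.82e-300 by the exact binomial test. Mir16-2 had the lowest ratio, -1.19 (-1.53 to -0.87, exact binomial adjusted p = 1.34e-14), and Mir16-1 had -1.04 (-1.25 to -0.83, exact binomial adjusted p = 1.57e-25). For both copies of the miR-16 gene, from different chromosomes, the assigned counts were lower in replicate 1 by a similar ratio, with overlapping intervals. These counts lack the reads that fit both copies, so a lower level of the shared arm is not shown. Mir15b, at -0.96 (-1.05 to -0.86), and Mir195a, at -0.66 (-0.75 to -0.57), were also lower in replicate 1 but under the ratio of 2. Mir15a, at 0.67 (0.58 to 0.76), was higher in replicate 1 and not called. The call of Mir16-1 was lost with library totals in place of TMM (-0.91), a scaling under which the median of all tested genes was 0.16. Mir15b was called when no filter on low counts was used (-1.05).

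**Figure D4:**
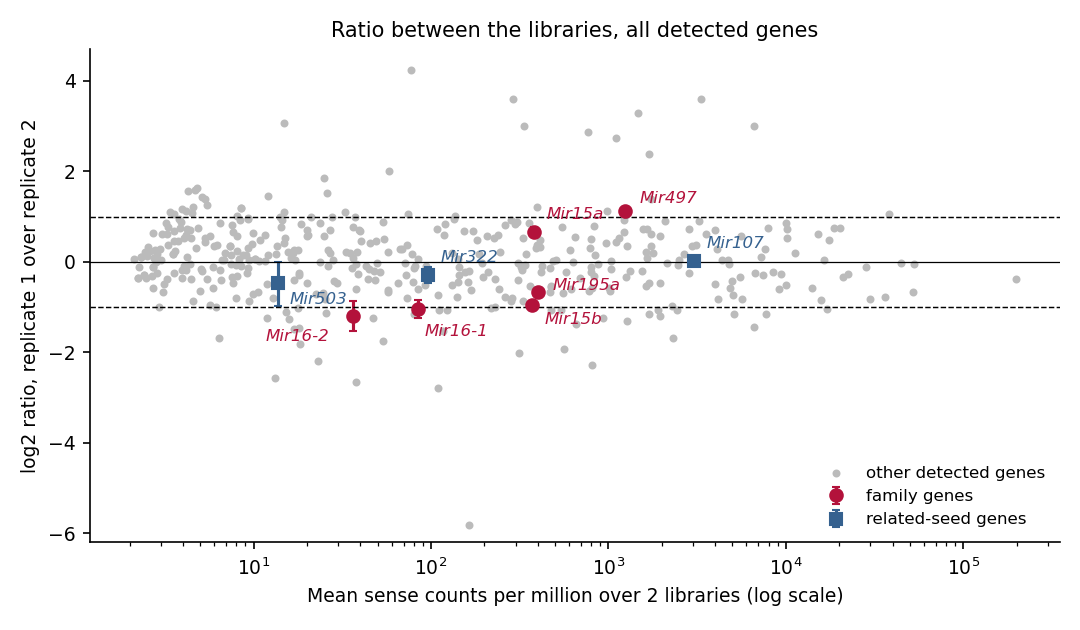
Log2 ratio of replicate 1 over replicate 2 against mean sense CPM (log axis) for the 438 detected genes; grey points are other genes, red points the 6 detected family genes, blue squares genes with a related seed, bars exact 95% intervals and dashed lines a ratio of 2. Mir497 (1.12) lies above the upper line, Mir16-1 (-1.04) and Mir16-2 (-1.19) below the lower one, and Mir107 (0.03) on zero.

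The ratio between the libraries moved with base composition. Over the detected genes it rose by 0.35 on the log2 scale for each 10 percentage points of precursor GC content. The detected family genes had a median GC content of 44.7% (range 36.8 to 61.9), against 53.2% over all detected genes (quartiles 46.1 to 59.4). Mir16-2 had 36.8%, Mir15b 40.6%, Mir16-1 44.1%, Mir15a 45.2%, Mir195a 54.3% and Mir497 61.9%. With the linear trend on GC content removed, 0 of the 6 genes were called, although 60 of the 438 tested genes were. The ratios were then 0.81 for Mir497, -0.73 for Mir16-1, -0.63 for Mir16-2, -0.52 for Mir15b and -0.70 for Mir195a. Mir15a was then at 0.94, so that Mir15a and Mir195a stood farther from 0 than before and the other 4 nearer. No family gene changed direction, and each kept an adjusted p under 0.05 (highest exact binomial adjusted p 0.000131, for Mir16-2). The trimming document cited by the labels differs between the libraries, so trimming and replicate cannot be told apart.

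**Figure D5:**
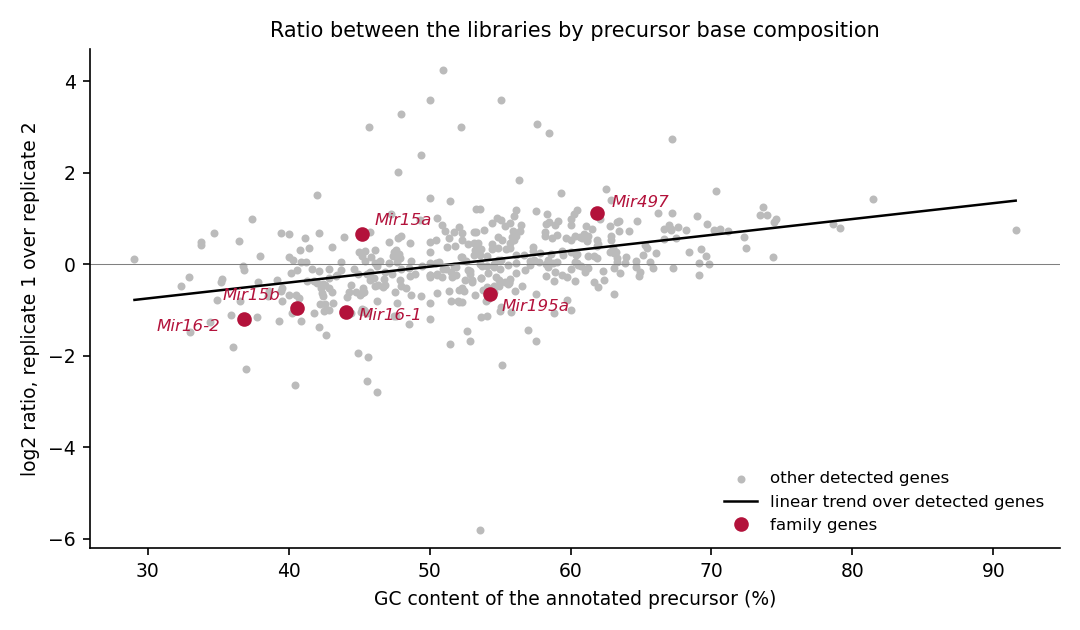
Log2 ratio of replicate 1 over replicate 2 against the GC content (%) of the annotated precursor for the 438 detected genes; grey points are other genes, red points the 6 detected family genes, and the line is the linear trend, of 0.35 per 10 percentage points. Mir16-2, Mir15b and Mir16-1 lie at 36.8% to 44.1% GC with ratios near -1, Mir497 at 61.9% with 1.12, and Mir15a above and Mir195a below the line.

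Cell type markers also differed between the libraries. Of the 7 detected neuron genes, 2 were called higher in replicate 2 (9.36% of all tested genes). They were Mir9-1 (log2 ratio -2.65) and Mir9-3 (-2.56), and 2 neuron genes were also called with the GC trend removed. None of the 3 oligodendrocyte genes was called. The 7 epithelium genes held 1.28% of counts in replicate 1 and 0.206% in replicate 2, with 6 called higher in replicate 1 (8.68% of all tested genes) and none of the 7 at 0. The remaining gene, Mir203, was lower in replicate 1 (log2 ratio -0.66) and not called. With the GC trend removed 6 epithelium genes were still called higher in replicate 1. The 5 choroid plexus and ependyma genes held 0.117% in replicate 1 and 0.247% in replicate 2, with 4 called higher in replicate 2 (9.36% of all tested genes) and none at 0. With the GC trend removed 2 of the 5 were called. The 3 endothelium and mural cell genes held 0.429% and 0.543%, and the 4 microglia and leukocyte genes 0.0896% and 0.128%, with none of either list called or at 0. With the GC trend removed, 1 microglia and leukocyte gene was called in each direction. The 3 red blood cell genes held 59 counts and 142 counts, of which Mir451a had 8 and 75, Mir486 48 and 67, and Mir144 3 and 0. The part of these cell types in the ratios of Mir497, Mir16-1 and Mir16-2 was not tested.

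Mir497b gives the strand of the counts at its locus. In the sense column it had 0 counts in both libraries, and in the opposite-strand column it had 7706 in replicate 1 and 5133 in replicate 2, which equal the sense counts of Mir497. In the column that ignores strand both genes had 0. The hairpin of Mir497 is shown with the 24 bases complementary to miR-497b in capitals.
Mir497: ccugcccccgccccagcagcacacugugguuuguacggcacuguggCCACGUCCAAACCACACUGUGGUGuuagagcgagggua
The capitals take in most of the 3p arm of Mir497, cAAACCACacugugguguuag. The product miR-497b does not hold the seed AGCAGCA, and no read of its strand was counted. By the set floor this was taken to allow up to 0.677 CPM in replicate 1 and 0.429 CPM in replicate 2. Across the tables, 30 genes with sense counts in both libraries had 0 in the column that ignores strand, 22 of them detected, and Mir497 was the 8th most abundant of these. The other 7 genes of the family had 0 counts on the opposite strand.

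Genes outside the 8 also have products with the same or a related seed. Across 1738 mature entries in RefSeq, 11 genes held AGCAGCA at bases 2 to 8. These were 7 of the family genes, Mir322, and Mir6342, Mir6353 and Mir6419, of which the last 3 had 0 counts in both libraries. The relatives with counts are shown with bases 2 to 8 in capitals.
miR-322-5p: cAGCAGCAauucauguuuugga
miR-503-5p: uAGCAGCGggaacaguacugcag
miR-107-3p: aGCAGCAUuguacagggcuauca
miR-103-3p: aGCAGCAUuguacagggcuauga
Mir322 and Mir503 lie on the X chromosome. The arm miR-503-5p shares bases 2 to 7 of the seed, and miR-107-3p and miR-103-3p carry it shifted by 1 base. Mir322 had 401 counts (90.5 CPM) in replicate 1 and 705 counts (100.9 CPM) in replicate 2, a mean of 95.7 ± 7.35 CPM (SD, n = 2). Mir503 had 53 counts (12.0 CPM) and 107 counts (15.3 CPM), and neither of the pair was called. Both stood below Mir497, Mir195a, Mir15a and Mir15b in both libraries, also per 100 nt of precursor.

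Mir107 had 14235 counts (3214 CPM) in replicate 1 and 20222 counts (2895 CPM) in replicate 2, a mean of 3054 ± 225 CPM (SD, n = 2) and a log2 ratio of 0.03. Among uniquely placed reads it exceeded the family, which without the reads that fit both Mir16 copies summed to 2900.0 CPM (replicate 1) and 2119.9 CPM (replicate 2). Mir103-2 had 139 counts (31.4 CPM) in replicate 1 and 307 counts (43.9 CPM) in replicate 2. Mir103-1 had 15 counts (3.39 CPM) and 40 counts (5.73 CPM). The arm miR-103-3p was found in both Mir103 precursors, as miR-16-5p was in both Mir16 precursors. The whole miR-107-3p, of 23 nt, was found in 1 precursor, but a run of 21 nt of it was also in Mir103-1. A read holding only that run cannot be assigned to 1 gene, so such reads are missing from the count of Mir107 as well. In both libraries the Mir103 genes stood below Mir107, and the Mir16 genes below Mir15a and Mir15b. Relatives with an arm of their own did not all stand higher. Mir503 (12.0 CPM in replicate 1 and 15.3 CPM in replicate 2) stood below both Mir16 genes in both libraries. Mir322 stood above Mir16-1 in replicate 1 (90.5 against 58.9 CPM) and below it in replicate 2 (100.9 against 110.9 CPM). Mir322 stood above Mir16-2 in both. Whether the unassigned reads account for the levels of the Mir103 and Mir16 genes was not tested.

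The other miRNAs known as brakes on the cell cycle were taken as a list of 21 genes, from the let-7, miR-26, miR-34 and miR-449 families. Of these 19 were detected, and the 8 that were called were all lower in replicate 1 (9.36% of all tested genes), with a median log2 ratio of -0.82 (range -5.82 to 0.17). With the GC trend removed, and likewise with library totals, 4 of the 19 were called, all lower in replicate 1. Mir34b, Mir34c and Mir449a are on both this list and that of choroid plexus and ependyma. The list held 16.2% of counts in replicate 1 and 19.7% in replicate 2, against 0.290% and 0.212% for the family. Its most abundant genes were Mirlet7b (54505 CPM in replicate 1 and 51647 CPM in replicate 2) and Mirlet7i (28269 and 44115 CPM), both known to act against growth-promoting messenger RNAs. Of 18 genes known to promote proliferation, from the miR-17 cluster and its paralogs with Mir21a, Mir221 and Mir222, 13 were detected and 1 was called in each direction, against 8.68% of all tested genes toward replicate 1 and 9.36% toward replicate 2. The median log2 ratio was -0.08, and it was 0.04 with library totals and 0.20 with the GC trend removed. Mir221 (8258 CPM in replicate 1 and 8773 CPM in replicate 2) and Mir222 (4338 and 2139 CPM) led that list, and both are known to repress the cell cycle inhibitor Cdkn1b. Each stood above Mir497, the most abundant family gene, in both libraries.

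The genes closest in level to each family gene were sought over all 438 detected genes by the distance between log2(CPM + 1) values in the 2 libraries. The nearest to Mir497 was Mir3102 (1646 CPM in replicate 1 and 789 CPM in replicate 2, distance 0.13), followed by Mir381 (0.33). For Mir15b and Mir195a the second nearest gene was in each case the other of the pair, at a distance of 0.29, after Mirlet7a-1 (0.22) for Mir15b and Mir130a (0.21) for Mir195a. Mir15a lay nearest to Mir193b (0.22) and Mir1224 (0.23), and Mir16-1 to Mir340 (0.17) and Mir30b (0.31). Mir16-2 was nearest to Mir103-2 (0.43) and Mirlet7f-1 (0.50). For no detected family gene was its neighbour at the same locus among its 2 nearest. With 2 libraries this likeness is one of level and carries no test.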

How the data were processed

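The authors deposited 1 table per library of raw, unnormalized counts per miRNA gene, with columns for either strand, the sense strand and the opposite strand, on mm10 with GENCODE M21 per the deposited readme text. Which aligner and counter were used is not given in the sources used here. The 4 summary lines that name no gene entered neither library sizes nor tests. Besides the shares given above, uniquely placed reads outside genes were 3.67% of reads in replicate 1 and 2.81% in replicate 2. All 2202 identifiers matched M21. Of the stranded columns, the one with the larger sum was taken as sense.

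From these counts CPM, Wilson, Clopper-Pearson and Poisson intervals at 95% and the exact binomial test were computed (R 4.3.3, edgeR 4.0.16 for TMM, SciPy 1.17.1, pandas 2.3.3), with 0.5 counts added for log2 ratios and p-values written no smaller than 1e-300. Reads carry no molecular identifiers, so intervals and the floor of 3 counts cover counting error only. Mature sequences and hairpins came from RefSeq tables, in which 8 of 8 genes matched for mature arms and 7 for hairpins (Mir15a had no hairpin entry), and arms were sought in the M21 precursors.

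The alternatives were library totals, DESeq2 size factors (DESeq2 1.42.0), no filter, 10 CPM, the either-strand column, thinning of the deeper library, a ratio of 1.5, removal of the GC trend, other denominators, and each library alone. The genes named were the 8 members, genes with the same or a shifted seed, the 2 genes nearest in level to each detected member, the 2 most abundant of each cell cycle list, and markers beside a result. The members, lists and tests were chosen with earlier results of these data known.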

Additional observations from a re-analysis of the deposited data

Results flagged for a closer look

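Mir497b had counts in a column that the comparisons did not use. Its opposite-strand count was 7706 in replicate 1 and 5133 in replicate 2, above the limit of 3 counts that a count of 0 allows, while its own sense count was 0 in both libraries. The values equal the sense counts of Mir497, which Mir497b overlaps over 84 nt. They lie on the strand of Mir497 and are not signal of Mir497b itself.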

How the results depend on the processing

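The direction of the ratio between the libraries was the same for each of the 6 detected family genes under the 8 alternatives, except that Mir497 could not be tested in the either-strand column. Called family genes numbered 6 with a ratio of 1.5 and 0 with the GC trend removed, in place of 3. They numbered 4 with no filter, 2 with library totals and 2 in the either-strand column. With DESeq2 size factors, 10 CPM or thinning there were 3. Genes called over the whole table numbered 171 with a ratio of 1.5 and 52 with a minimum of 10 CPM, in place of 79. With library totals the calls were 55 higher in replicate 1 and 29 higher in replicate 2, in place of 38 and 41. In the either-strand column, where overlapping genes lose their counts, the family share was 0.134% and Mir195a made up 100% of its pair, with 5 genes detected. Without the most abundant gene in the denominator the family share was 0.312%. With 1 library left out, the family share was 0.212% to 0.290%, and the first gene's share of its pair was 71.6% to 89.2% in Dleu2, 90.6% to 91.9% in Smc4 and 15.8% to 39.1% on chromosome 11. Of the values that answer a comparison, 28 moved by less than the spread between the libraries or within 1.5 times. These 28 include the shares with 1 library left out. With 2 libraries such a share always lies within that spread of the mean, so it is no test of stability. No paired analysis was possible because there is 1 group. For Mir195b and Mir497b depth sets a limit of 3 counts. Calls in the other lists were counted under the same alternatives, a choice made after seeing the data.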
